A study of Mus musculus with 2 samples.

Results

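Plasminogen activation in the mammary gland was followed through 5 genes chosen by symbol: the activators *Plat* and *Plau*, the receptor *Plaur*, the inhibitor *Serpine2*, and *Klkb1*, which encodes plasma kallikrein. All 5 were found among the 25810 genes with a symbol, and all 5 passed the minimum used here, 1 read per 1000000 mapped reads (RPM) in either library, as did 14026 genes in all. The data were 2 libraries of poly(A) RNA, 1 from wild type (WT) and 1 from *Igfbp7-/-* mice, made from mammary epithelial cells (MECs) of inguinal glands on lactation day 3. The *Igfbp7-/-* mice were whole-body nulls made by removing the first exon of *Igfbp7*, and neither genotype carried any other allele or treatment that the sources named. Both samples are labelled C57BL/6, whereas the methods place the knockout on CD1, and the age of the mice and the number behind each library were not given in the sources used here. Cells positive for CD45, Ter119 and CD31 were depleted with magnetic beads, although the labels name CD35 in place of CD31. With 1 library per genotype there was no replicate check, so no p-value is given, and each interval is a 95% Clopper-Pearson interval on read pairs that covers counting error only.

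Plasminogen is a circulating zymogen that tissue-type (*Plat*) and urokinase-type (*Plau*) activators cleave into plasmin, a protease of broad specificity. Urokinase works largely at the cell surface, bound to its receptor (*Plaur*), and serpins, *Serpine2* among them, inactivate both activators. Plasmin degrades fibrin, fibronectin and laminin and activates pro-metalloproteinases, and in the mammary gland this activity is low in lactation and increases in involution, when the alveoli are dismantled. Plasma kallikrein, best known from the contact system of blood, can also cleave plasminogen and has been linked to stromal mast cells and the return of adipocytes in the involuting gland.

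Of these genes, *Plau* was lower and *Klkb1* was higher in the *Igfbp7-/-* library, while *Plat*, *Plaur* and *Serpine2* differed by less than 1.5 times. Thus 1 of 5 members was higher, beside 21.4% of all genes past the minimum of 1 RPM, and 1 of 5 was lower, beside 23.0%. These shares are near the background, so the counts set the members apart from other genes in neither direction. On the log2 scale, the *Igfbp7-/-* to WT ratio had a median of -0.25 over the members and of 0.035 over all 14026 genes, whose middle 50% lay between -0.52 and 0.51. The ratios here are of RPM with 0.1 RPM added to both libraries, and a gene is called higher or lower at a ratio of at least 1.5. The intervals are of the count ratio without that addition, so at low counts they are not centred on the ratio given.

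**Figure D1:**
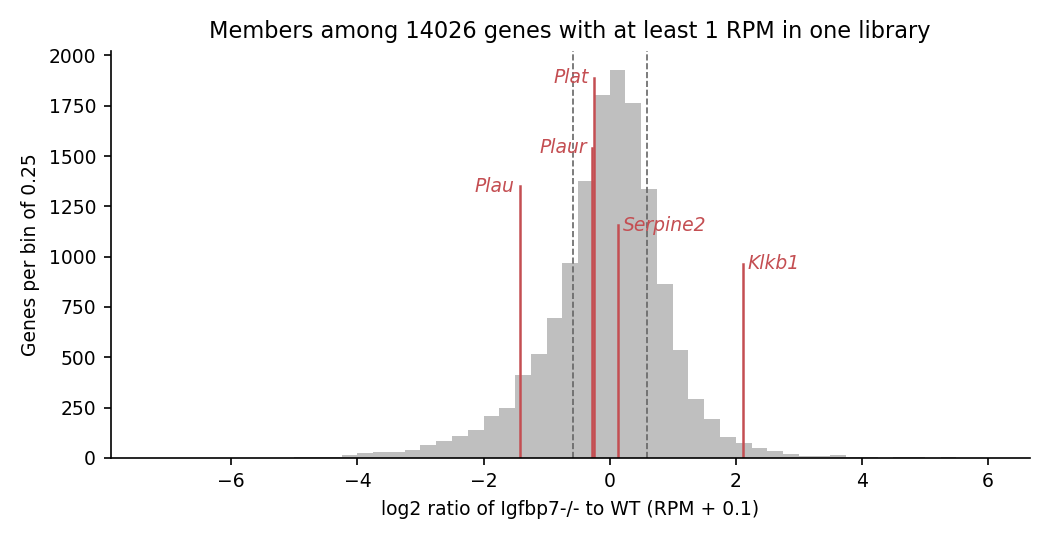
Histogram of the log2 ratio of Igfbp7-/- to WT (RPM + 0.1) for 14026 genes, with the number of genes per bin of 0.25 on the vertical axis and the 5 members as red lines whose heights only separate the names. Dashed lines mark a ratio of 1.5 in either direction; Plau (-1.43) lies beyond the left one, Klkb1 (2.11) beyond the right one and the other members between them.

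The targeted gene and the depth were examined first. *Igfbp7* had 5224 reads in WT and 37 in *Igfbp7-/-* (152.2 and 1.06 RPM), in the direction that the labels give. The deposited scaling implied 34327854 mapped reads for WT and 35016847 for *Igfbp7-/-*, and 82.3% and 72.3% of them fell on genes with a symbol. A count of 0 allows up to 3 reads, or 0.0874 RPM for WT and 0.0857 RPM for *Igfbp7-/-*. When the reads on listed genes served as the total instead, the median ratio of all genes moved up by 0.19 on the log2 scale, and the direction of none of the 5 members turned.

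*Plat*, tissue-type plasminogen activator, had 2901 reads in WT and 2481 in *Igfbp7-/-*, or 84.5 and 70.9 RPM. By the deposited RPM the level was slightly lower in the *Igfbp7-/-* library. The log2 ratio was -0.25 (interval -0.36 to -0.14), and 35.3% of the genes past the minimum had a lower ratio. The log2 ratio of *Plat* was -0.066 with the reads on listed genes as the total. In NCBIM37 (mm9) *Plat* lies on the plus strand of chromosome 8, at chr8:23868216-23893319, and its annotated transcript has 14 exons.

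*Plau*, urokinase, had 8969 reads in WT and 3399 in *Igfbp7-/-*, or 261.3 and 97.1 RPM. It was 2.69-fold lower in the *Igfbp7-/-* library, with a log2 ratio of -1.43 (-1.51 to -1.35), and 8.01% of the genes past the minimum had a lower ratio. Per length, urokinase passed from the highest of the 5 members in WT (111.5 reads per kilobase per 1000000 mapped reads, RPKM) to the second in *Igfbp7-/-* (41.4 RPKM). The gene lies on the plus strand at chr14:21655884-21662610, with 11 exons.

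*Plaur*, the urokinase receptor that is anchored in the membrane by a glycolipid, had 3513 and 2942 reads, or 102.3 RPM in WT and 84.0 RPM in *Igfbp7-/-*. Its log2 ratio of -0.28 (-0.39 to -0.18) was close to that of *Plat* and stayed within 1.5 times. The ratio was -0.10 with the reads on listed genes as the total. In both libraries *Plaur* was among the more abundant transcripts, at 73.3 RPKM in WT and 60.2 RPKM in *Igfbp7-/-*. These levels lay above 96.8% and 96.5% of the genes with an RPKM above 0. The gene lies on the plus strand at chr7:25247519-25260892, with 7 exons.

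*Serpine2*, protease nexin-1, a serpin that inhibits thrombin as well as the plasminogen activators, had 445 and 497 reads, or 13.0 and 14.2 RPM. The log2 ratio of 0.13 had an interval of -0.14 to 0.40 that held no difference as well as a difference in either direction. Thus none was detectable by the deposited RPM. The ratio was 0.32 with the reads on listed genes as the total. The gene lies on the minus strand at chr1:79790772-79855271, and 2 transcripts are annotated.

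*Klkb1* had 52 reads in WT and 241 in *Igfbp7-/-*, or 1.51 and 6.88 RPM. It was 4.32-fold higher in the *Igfbp7-/-* library, with a log2 ratio of 2.11 (1.56 to 2.85), and 98.6% of the genes past the minimum had a lower ratio. It remained the member with the lowest level per length, at 0.613 RPKM in WT and 2.78 RPKM in *Igfbp7-/-*. A pseudocount of 1 RPM brought the log2 ratio to 1.65. The gene lies on the minus strand at chr8:46354796-46393820, where the far 5′ end of its longer annotated span overlaps *Cyp4v3*, a cytochrome P450 gene of the same strand at chr8:46391155-46418570. Reads in that overlap could belong to either gene, and *Cyp4v3* itself had 138 and 134 reads (4.02 and 3.83 RPM, log2 ratio -0.07). No other member overlaps an annotated gene.

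**Figure D2:**
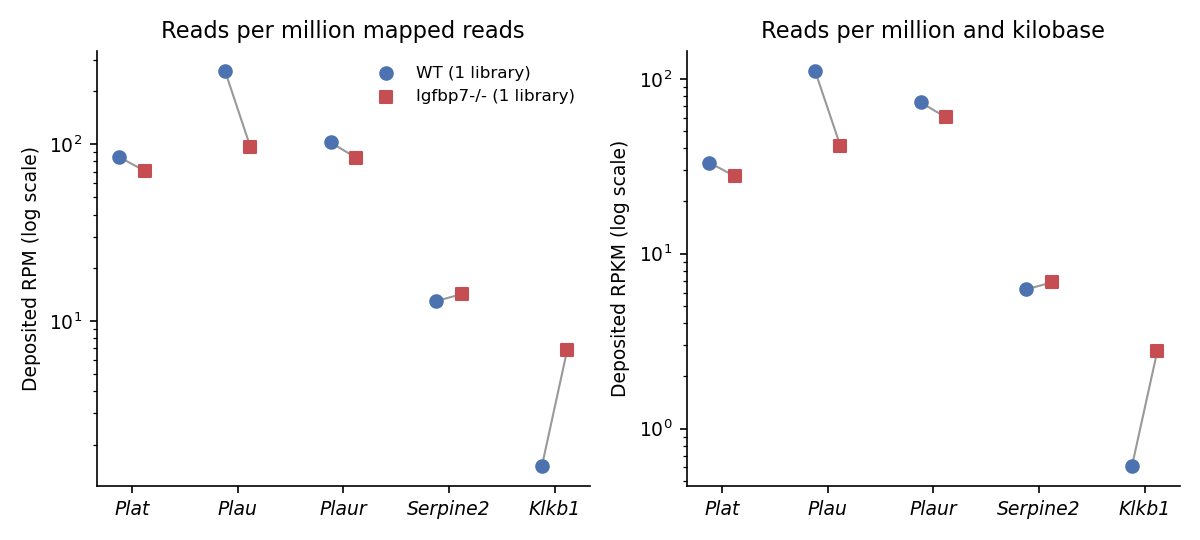
Deposited RPM (left) and RPKM (right) of the 5 members on log axes, with a circle for the WT library, a square for the Igfbp7-/- library and a line joining the same gene. Plau drops from 261.3 to 97.1 RPM, Klkb1 climbs from 1.51 to 6.88 RPM and the other members stay near level.

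Levels of different genes were compared per length. In WT the order by RPKM was *Plau* (111.5), *Plaur* (73.3), *Plat* (33.2), *Serpine2* (6.26) and *Klkb1* (0.613). In *Igfbp7-/-* it was *Plaur* (60.2), *Plau* (41.4), *Plat* (27.8), *Serpine2* (6.85) and *Klkb1* (2.78), so the receptor and urokinase changed places. *Plau* made up 49.6% of the members' summed RPKM in WT and 29.8% in *Igfbp7-/-*, whereas the share of *Plaur* was 32.6% and 43.3% and that of *Klkb1* 0.273% and 2.0%. No spread between animals was available to say which neighbours in either order differ.

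The bases upstream of the annotated start are shown for *Serpine2*, *Plaur* and *Klkb1*, since these members spanned the range from a scarce to an abundant transcript and matched entries of the RefSeq promoter table (GRCm38.p6); 3 of 5 members matched. Each line gives the 250 bases before the RefSeq start on the gene's strand, 5′ to 3′, at chr1:79858666-79858915 (minus), chr7:24462233-24462482 (plus) and chr8:45294836-45295085 (minus), and each occurred once in NCBIM37. Capitals mark matches to the motifs searched on both strands: TGANTCA (AP-1), GGGCGG (GC box), TTCNNNGAA (STAT) and TATAAA.
Serpine2: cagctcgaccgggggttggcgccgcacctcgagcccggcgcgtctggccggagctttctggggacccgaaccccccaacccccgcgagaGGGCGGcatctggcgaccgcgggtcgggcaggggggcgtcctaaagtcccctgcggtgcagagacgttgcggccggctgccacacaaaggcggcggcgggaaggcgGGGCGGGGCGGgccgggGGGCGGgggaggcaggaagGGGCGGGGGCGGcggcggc
Plaur: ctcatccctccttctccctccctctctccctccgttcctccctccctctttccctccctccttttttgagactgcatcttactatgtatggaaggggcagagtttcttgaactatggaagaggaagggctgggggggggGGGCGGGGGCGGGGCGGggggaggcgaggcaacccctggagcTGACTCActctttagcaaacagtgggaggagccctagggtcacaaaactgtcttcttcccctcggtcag
Klkb1: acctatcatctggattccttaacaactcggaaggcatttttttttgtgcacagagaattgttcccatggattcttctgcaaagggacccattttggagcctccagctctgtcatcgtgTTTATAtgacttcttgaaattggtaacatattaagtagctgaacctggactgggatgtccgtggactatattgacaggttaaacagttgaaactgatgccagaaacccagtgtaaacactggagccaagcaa
The *Serpine2* window held 6 GC boxes, of which 2 shared a base, and had a GC content of 78.8% with 34 CpG dinucleotides. The *Plaur* window held 3 GC boxes, with an overlap of 1 base between 2 of them, and an AP-1 match with the letters TGACTCA that ended 63 bases before the start. The *Klkb1* window was the least GC-rich, at 42.4% with 3 CpG, and its only match was TATAAA on the opposite strand, printed as TTTATA. Over 32817 windows of this length, the GC box occurred in 32.7%, AP-1 in 6.75%, STAT in 7.01% and TATAAA in 12.4%, and the median GC content was 52.4%. The *Klkb1* window, at chr8:46380190-46380439 in NCBIM37, lies within the span annotated there and not at its 5′ end. A match is a string of letters and was not tested for binding.

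The balance between an enzyme and its partner was examined as the ratio of their reads within a library, which does not depend on how the libraries were scaled. The ratio of *Plau* to *Plaur* by RPKM was 1.52 in WT and 0.688 in *Igfbp7-/-*. On read pairs, it was 0.453 times as large in *Igfbp7-/-* (conditional exact 95% interval 0.413 to 0.495). The ratio of *Plau* to *Plat*, the other activator, was 3.36 in WT and 1.49 in *Igfbp7-/-*, or 0.443 times as large (0.403 to 0.487).

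The ratio of *Plat* to its inhibitor *Serpine2* was 5.30 in WT and 4.06 in *Igfbp7-/-*, or 0.766 times as large on read pairs (0.626 to 0.936). Of the members, urokinase was thus lower in *Igfbp7-/-* relative to its receptor as well as to the other activator, while *Plat* was lower relative to *Serpine2* by a smaller factor.

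**Figure D3:**
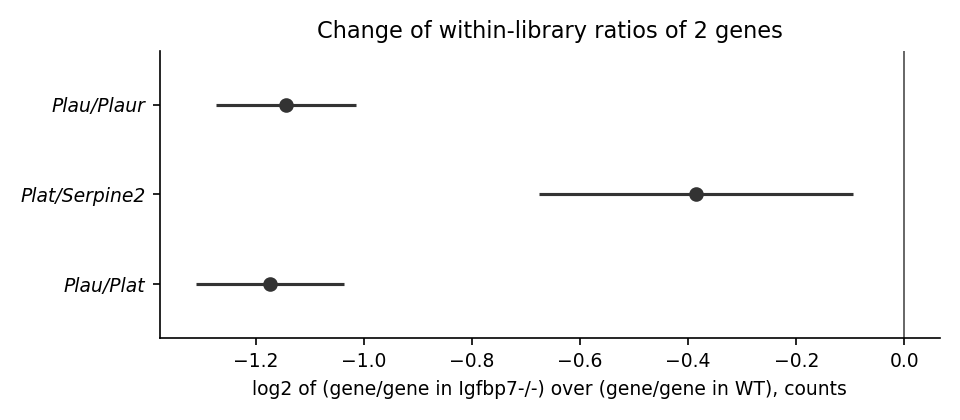
Log2 of the ratio of 2 genes' counts in Igfbp7-/- over the same ratio in WT, for 3 pairs; points are the values and bars the 95% conditional exact intervals on read pairs (counting error only). Plau/Plaur (-1.14), Plau/Plat (-1.17) and Plat/Serpine2 (-0.39) all lie left of 0, with Plat/Serpine2 nearest to it.

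The members were then placed among 33 genes of the plasminogen system, the 5 members included. The list was written with results on some of its genes known. Its counts, whole or by role below, are therefore not independent of these data. In all, 23 genes passed the minimum; 3 were higher in *Igfbp7-/-*, 13 were lower and 7 differed by less than 1.5 times. The shares were 13.0% higher and 56.5% lower, beside 21.4% and 23.0% of all genes. The median log2 ratio was -0.67. Of these genes, *Serpini1* passed the minimum only through WT, and *Serpinf2* and *Mmp9* only through *Igfbp7-/-*, so their direction was tied to the minimum. With at least 1 RPM required in both libraries, 1 gene was higher and 12 were lower. Over all genes, that minimum gave 2519 higher and 2548 lower. Without the 5 members, 18 genes passed the minimum of 1 RPM in either library. Of these, 12 were lower and 2 were higher, with a median of -0.88.

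**Figure D4:**
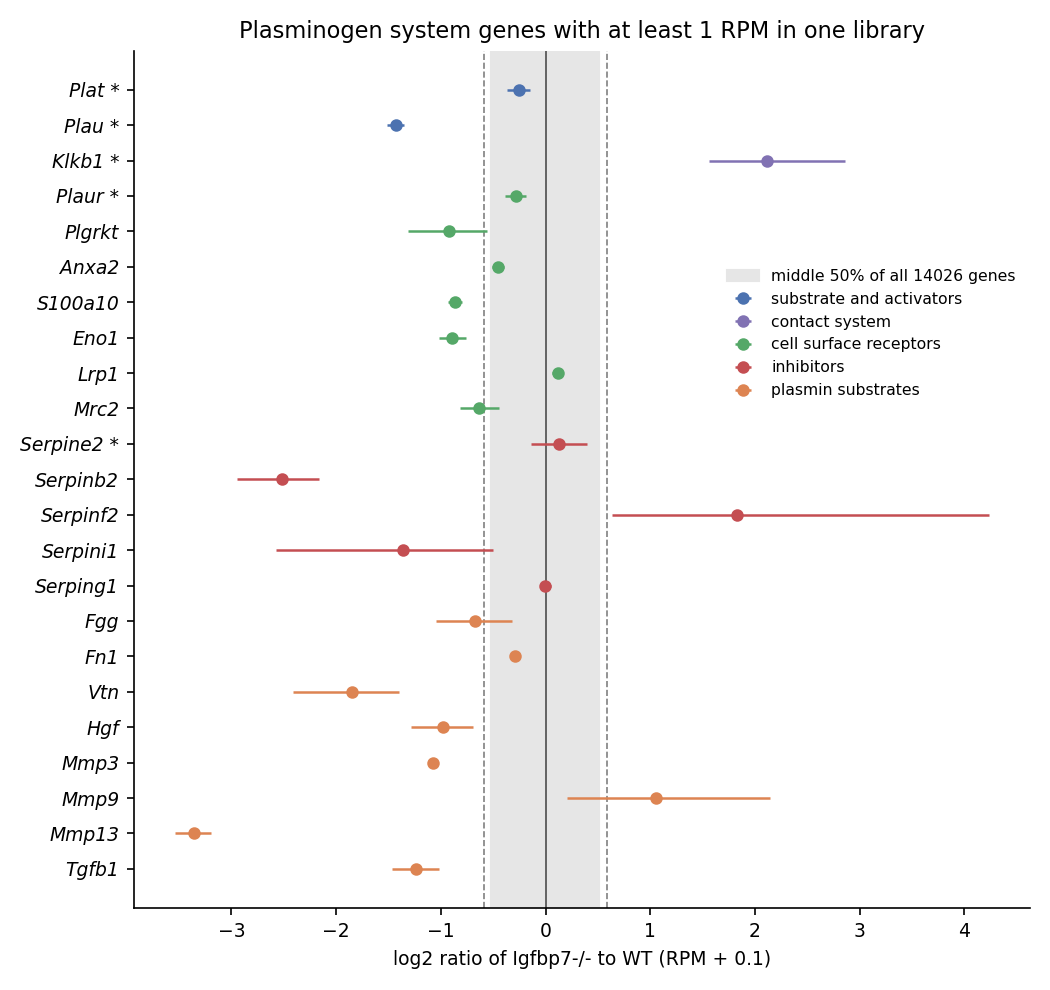
Log2 ratio of Igfbp7-/- to WT (RPM + 0.1) for the 23 plasminogen system genes past the minimum, coloured by role, with asterisks on the 5 members and 95% intervals on read pairs as bars. The grey band holds the middle 50% of all 14026 genes and dashed lines mark a ratio of 1.5; 13 genes lie beyond the left line and Klkb1, Serpinf2 and Mmp9 beyond the right one.

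The substrate itself was barely present. *Plg*, plasminogen, had 0 reads in WT and 2 in *Igfbp7-/-*, both within what a count of 0 allows. The other contact system genes were also below the minimum: *F11* had no reads in either library, *F12* had 0 in WT and 2 in *Igfbp7-/-*, and *Kng1* and *Kng2*, the kininogens, had at most 4 reads in a library. *Klkb1* was thus the only one of 5 contact system genes past the minimum.

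All 7 receptor genes passed the minimum, and 4 were lower in *Igfbp7-/-* and none was higher, beside 23.0% lower and 21.4% higher over all genes. *S100a10*, which with annexin A2 binds plasminogen and *Plat* at the cell surface, was at 333.1 RPM in WT and 183.1 RPM in *Igfbp7-/-* (log2 ratio -0.86). *Plgrkt*, a plasminogen receptor that is listed under the older symbol 5033414D02Rik, was at 9.99 and 5.23 RPM (-0.92), and *Eno1*, a glycolytic enzyme that also binds plasminogen, at 81.6 and 44.0 RPM (-0.89). *Mrc2*, a collagen receptor that associates with *Plaur*, was at 35.2 and 22.7 RPM (-0.63), just past 1.5 times, with an interval of -0.82 to -0.45 that extended below that fold. *Anxa2* was at 313.7 and 228.8 RPM (-0.46). *Lrp1*, which takes up complexes of activator and inhibitor, was at 354.7 and 384.0 RPM (0.11).

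Of 8 inhibitor genes 5 passed the minimum, and the members of this group varied widely. *Serpinb2*, plasminogen activator inhibitor 2, had 749 reads in WT and 131 in *Igfbp7-/-* (21.8 and 3.74 RPM) and was 5.71-fold lower, with a log2 ratio of -2.51 (-2.95 to -2.16). *Serpini1*, neuroserpin, an inhibitor of *Plat*, was at 1.92 and 0.69 RPM (-1.36, interval -2.58 to -0.50). *Serpinf2*, the plasmin inhibitor α2-antiplasmin, had 8 and 38 reads (0.23 and 1.09 RPM), with a log2 ratio of 1.83 whose interval ran from 0.63 to 4.23 and which was 0.76 with a pseudocount of 1 RPM. *Serping1*, the C1 inhibitor that also blocks plasma kallikrein, was at 322.6 and 321.9 RPM, and its log2 ratio of -0.00 was 0.18 with the reads on listed genes as the total. *Serpina5* and *A2m* had 2 reads in WT and 0 in *Igfbp7-/-*, and *Cpb2* had 2 in each.

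Among 10 plasmin substrates, 8 passed the minimum, 1 of them (*Mmp9*) only through *Igfbp7-/-*; 6 were lower and 1 was higher, beside 23.0% and 21.4% of all genes. *Mmp13*, a collagenase whose proenzyme plasmin can activate, had 6161 reads in WT and 609 in *Igfbp7-/-* (179.5 and 17.4 RPM) and was 10.3-fold lower (log2 ratio -3.36), the lowest ratio in the plasminogen system list. *Mmp3*, stromelysin-1, was at 702.0 and 332.6 RPM (-1.08). *Vtn*, vitronectin, an adhesive matrix protein that binds *Plaur*, was at 9.21 and 2.48 RPM (-1.85). The growth factors *Tgfb1* (31.2 and 13.2 RPM, -1.23) and *Hgf* (16.5 and 8.31 RPM, -0.98) were lower as well. *Fgg*, a fibrinogen chain, was at 9.70 and 6.05 RPM (-0.67, interval -1.05 to -0.32), while *Fga* stayed below the minimum and *Fgb* had no reads. *Fn1*, fibronectin, was at 970.5 and 791.2 RPM (-0.29). *Mmp9*, gelatinase B, had 29 and 65 reads (0.84 and 1.86 RPM, log2 ratio 1.05, interval 0.20 to 2.14).

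In bulk RNA, fewer cells of a type and less RNA per cell cannot be told apart, and marker lists are therefore given beside the members. For the marker counts here and below, the shares over all genes past the minimum were 23.0% lower and 21.4% higher. Fibroblasts and endothelial cells are known sources of *Plau* and *Plat*. Summed over 6 fibroblast markers, of which 4 were lower and none was higher, the level was 9060 RPM in WT and 4582 RPM in *Igfbp7-/-*. Single fibroblast markers ran from a log2 ratio of -2.25 (*Lum*) to 0.45 (*Pdgfra*). Over 6 endothelial markers the sum was 1129 RPM in WT and 374.8 RPM in *Igfbp7-/-*, with 5 lower, although CD31 (*Pecam1*) was a target of the depletion. The 6 basal markers summed to 2942 and 957.9 RPM, with 5 lower. All of these lists moved in the direction of *Plau* and of the lower genes of the plasminogen system, whereas *Plat* stayed within 1.5 times (log2 ratio -0.25). That direction was not particular to them. Median log2 ratios were also negative for the leukocyte and macrophage (-1.26), neutrophil (-1.24), alveolar (-0.80) and mast cell (-0.47) lists given below. The erythroid median was 0.059. The part of these lists in the result was not tested.

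Blood cell markers were mixed, and their counts stand beside 23.0% lower and 21.4% higher over all genes. Of 7 leukocyte and macrophage markers 5 were lower, and the sum of 654.3 RPM in WT and 755.8 RPM in *Igfbp7-/-* was carried by *Cd14* (469.9 and 677.4 RPM); *Ptprc*, which encodes CD45, was at 43.5 and 18.1 RPM. Of 5 neutrophil markers, 3 passed the minimum and 2 were lower, with sums of 32.9 and 27.6 RPM. The erythroid sum was 888.5 and 997.4 RPM, with none of 3 markers past 1.5 times. The alveolar markers were split: *Krt8* and *Krt18* were higher, and *Csn2*, *Wap* and *Lalba* were lower, so the sum, mostly *Csn2*, was 67875 RPM in WT and 26084 RPM in *Igfbp7-/-*. *Csn2*, β-casein, was at 53087 RPM in WT and 19970 RPM in *Igfbp7-/-*, so the defining marker of the labelled tissue was abundant in both libraries.

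For *Klkb1*, the lists of liver and mast cells are given, since the liver is the main source of plasma kallikrein; mast cells carry CD45, a target of the depletion. Of 5 hepatocyte and plasma protein markers none passed the minimum, *Alb* and *Ttr* had no reads, and the sum was 0.146 RPM in WT and 0.257 RPM in *Igfbp7-/-*. Of 6 mast cell markers 5 passed the minimum. *Tpsb2* (2.74 and 6.37 RPM) and *Cma1* (5.48 and 9.17 RPM) were higher, *Cpa3* and *Hdc* were lower, *Mcpt4* was within 1.5 times, and *Ms4a2*, part of the IgE receptor, had no reads. The mast cell sum was 70.1 and 51.7 RPM, with *Hdc* (35.4 and 17.8 RPM) as its largest part. The epithelial keratins *Krt8* (268.1 and 789.0 RPM) and *Krt18* (250.4 and 1174 RPM) were higher, as *Klkb1* was, whereas the keratins *Krt5* (log2 ratio -1.67) and *Krt14* (-1.13) and the milk protein genes *Csn2*, *Wap* and *Lalba* were lower and *Elf5* was at -0.52. The part of these cell types in the *Klkb1* result was not tested.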

How the data were processed

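Poly(A) RNA of lineage-depleted MECs was sequenced in 2 libraries on a SOLiD instrument, with paired reads of 35 and 75 bases. The authors mapped the reads with a Bowtie-based pipeline (Bowtie 0.12.3 and SAMtools 0.1.15 in the submitters' processing notes), allowed up to 3 mismatches and filtered mitochondrial, ribosomal and small nuclear RNA. The processing notes name mm9, whereas the methods name a human build; the rows carry mouse symbols. The deposited counts are reads per gene and were not normalized. The deposited RPM values are reads per 1000000 mapped reads of the library, and the deposited RPKM values divide them by a length in kilobases that the authors assigned to each gene (733 rows have none). A rise in unlisted reads lowers every RPM of that library. Handling of strand and of reads with several matches was not given in the sources used here. Rows without a symbol (50, with 0.0408% and 0.0484% of the reads) were left out.

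Groups came from the sample labels. All 5 members are reported, with the plasminogen system and marker lists; members and lists were chosen with earlier results of these data known, and the rule names every gene of those lists. A planned gene and the ratios that need it are not reported here, and the counts leave it out. Log2 ratios used a pseudocount of 0.1 RPM, a minimum of 1 RPM in one library and a fold of 1.5. Even counts made up 75.8% and 74.1% of the counts from 1 to 20, so intervals used counts divided by 2. Reads of a pair, or copies made by PCR, are not independent molecules. No replicate test could be made. The ratios, calls and intervals were tried on simulated counts drawn by the model behind the intervals. Changes were set only in genes with a mean of at least 10 RPM. Such a trial checks the code and not the spread between animals. Alternatives were TMM (edgeR 4.0.16, scaling only), median-of-ratios, the listed reads as total, removal of the 20 most abundant genes, centring, pseudocounts of 0.01 and 1 RPM, RPKM, other minimums, a fold of 2, and intervals on single reads or as an added criterion. Gene positions came from GENCODE vM1 (NCBIM37). Python 3.11.15, numpy 2.4.6, scipy 1.17.1, pandas 2.3.3, matplotlib 3.10.9 and R 4.3.3 were used.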

Additional observations from a re-analysis of the deposited data

How the results depend on the processing

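Of the values recomputed under the alternatives, 142 stayed the same, 20 moved and no called value changed sign. The same meant within the 95% interval of the reported value or, for counts of genes, within 1.5 times of it. For medians, the interval came from the order of the ratios. For the 5 members that interval was the whole range of their ratios (-1.43 to 2.11), so their median could hardly count as moved. Single reads alter only an interval, and the gene length in RPKM is the same in both libraries. These 2 alternatives could hardly move a value. The reads on listed genes as the total gave log2 ratios of -0.066 for *Plat*, -1.24 for *Plau* and -0.10 for *Plaur*. Over 6 scalings, *Serpine2* ran from 0.09 to 0.32 and *Klkb1* from 2.08 to 2.31, while a pseudocount of 1 RPM gave 1.65 for *Klkb1*. With at least 10 RPM in one library, no member was higher (0 of the members), because *Klkb1* falls below that level. The plasminogen system list had 6 higher and 15 lower genes with no minimum, and 0 and 9 with at least 10 RPM. It had 1 and 12 with at least 1 RPM in both libraries, and 3 and 7 at a fold of 2. Over all genes, 4741 were higher and 5279 lower with no minimum, and 1696 and 1672 with at least 10 RPM. The counts were 2519 and 2548 with at least 1 RPM in both libraries, and 1352 and 1936 at a fold of 2. The fold of 2 was applied to the 14026 genes past the minimum, 23 of them in the list. For the other minimums the genes tested were not counted, so those counts give no shares. The median log2 ratio of all genes was 0.014 with TMM, 0.22 with listed reads as the total, 0.080 without the 20 most abundant genes, 0 when centred, -0.010, with the opposite sign, with no minimum and 0.059 with at least 10 RPM. No paired analysis was possible because each genotype had 1 library, and for the same reason no library could be left out. Depth limits *Klkb1* in WT (52 reads), *Serpinf2* (8 reads in WT) and the genes below the minimum.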

Other observations

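The membrane-bound serine proteases *St14* and *Prss8* and the inhibitor *Spint1* were higher in the *Igfbp7-/-* library; the list they come from was chosen after its values had been seen. *St14*, matriptase, an epithelial protease that can activate pro-urokinase, had 2352 reads in WT and 7466 in *Igfbp7-/-* (68.5 and 213.2 RPM) and was 3.11-fold higher. *Prss8*, prostasin, was at 34.1 and 73.4 RPM, or 2.15-fold higher. *Spint1*, an inhibitor of matriptase, was at 16.6 and 55.8 RPM, or 3.35-fold higher, and *Spint2* was at 69.7 and 101.0 RPM, or 1.45 times the WT level. *Hpn*, hepsin, had 48 and 80 reads, a 1.59-fold higher level whose interval held no difference. *Ctsb* (1107 and 891.4 RPM), *Ctsl* (548.7 and 528.1 RPM) and *Met* (223.4 and 227.9 RPM) were within 1.5 times, and *Hgfac* was below the minimum. In all, 4 of 8 genes past the minimum were higher and 0 were lower, beside 21.4% and 23.0% of all genes.

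The tissue kallikreins are a separate family from plasma kallikrein. Of 27 genes with a *Klk* symbol, 2 passed the minimum, both through the *Igfbp7-/-* library alone: *Klk10* had 20 reads in WT and 241 in *Igfbp7-/-*, and *Klk11* had 6 and 98. Of the 62 serpin genes counted here, 24 passed the minimum, 17 were lower (70.8%) and 2 were higher (*Serpinb8* and *Serpinf2*), beside 23.0% lower and 21.4% higher over all genes, with a median log2 ratio of -0.93; 5 of the 24 passed through WT alone and 1 through *Igfbp7-/-* alone.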
